A study of Mus musculus with 82 samples.

Results

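Primary aortic vascular smooth muscle cells (aVSMC) of C57BL/6 mice were compared after 48 h with and without U46619, a stable thromboxane A2 analog that activates the thromboxane prostanoid receptor (TP). The comparison rests on 10 of the 82 RNA-sequencing libraries of the study, 5 control cultures and 5 cultures with 1 µM U46619, and it covers the 48326 of 55401 listed genes that lie outside chromosomes 9, X, Y and MT. The passaged primary cells were kept without serum and supplements for 24 h before the incubation, and received neither EGF nor angiotensin II in either group. Control and U46619 cultures that carry the same replicate number are called a culture set (sets 1 to 5), and every fold change below was estimated within sets. The labels give sets 1 and 4 the same mouse number and thus name 4 mice for the 5 sets, whereas the methods speak of a different mouse for each replicate. The same batch also held 5 cultures with 10 µg/L EGF and 5 with EGF+U46619, and 6 control and 6 U46619 cultures of other mice were sequenced after 24 h. These further libraries are used below to see how far the changes recur.

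Thromboxane A2 is made from arachidonic acid by cyclooxygenase and thromboxane synthase and is released mainly by activated platelets. Its receptor TP couples to Gq and G12/13 proteins, so that its activation raises intracellular calcium and switches on RhoA and its kinases. In vascular smooth muscle, TP is known for contraction and for effects on growth, extracellular matrix and inflammatory mediators, and it is also known to act on ERK signaling, in part through EGFR.

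The total count per library was 21608793 to 25773639 in control and 19936925 to 32797224 in U46619, and 14634 genes passed the filter on low counts and were tested. Expression is given as FPM, the fragment count of a gene relative to the scaled size of its library, which compares a gene between libraries but not with another gene. All 7075 genes of chromosomes 9, X, Y and MT and a further 661 genes at the distal end of chromosome 8 are listed at 0 in every library and were not analysed here. Among markers of smooth muscle, Acta2 ranged from 1487 to 7328 FPM in control, whereas Myh11 ranged from 2.51 FPM in set 5 to 237 FPM in set 4. The summed markers of other cell types varied widely between sets and overlapped between the groups. They were 3240 to 10800 FPM in control and 3410 to 7100 FPM in U46619 for 9 fibroblast markers. For 7 endothelial markers the ranges were 19.7 to 1020 and 16.2 to 935 FPM, and for 8 macrophage markers 58.0 to 141 and 42.9 to 79.1 FPM. Such overlap does not show a like composition, since only 3.20% of all tested genes had groups without overlap. The macrophage-defining genes Ptprc, Adgre1 and Itgam had at most 3 counts in a library. Other markers of that list were expressed, Lyz2 at a mean of 74.2 FPM in control and 35.6 FPM with U46619 and Csf1r at 11.2 and 18.9 FPM. Of the tested markers, 5 of 8 for fibroblasts, 4 of 11 for smooth muscle, 2 of 4 for pericytes and 1 of 2 for Schwann cells were lower with U46619. None of these lists held a marker that was higher. Of the 4 tested macrophage markers, 1 was higher and 1 lower. The part of cell composition in the results was not tested. In bulk RNA, fewer cells of a type and less RNA per cell cannot be told apart.

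U46619 changed 3112 genes (DEG) after 48 h, 21.3% of the genes tested, with 1673 higher and 1439 lower than in control. A DEG had an FDR under 0.05 in edgeR's quasi-likelihood test and in DESeq2's Wald test, and reached 5 FPM on average in control or U46619. Most changes were small. The median DEG was 1.31-fold higher or 1.36-fold lower, and 2.67% of the DEG were higher and 5.24% lower by more than 1 on the log2 scale. Of the DEG, 2682 moved in the same direction in 5 of 5 sets, which held for 30.5% of all tested genes. The control and U46619 values did not overlap for 359 DEG (11.5%), compared with 3.20% of all tested genes. By type of gene, 2936 of 12106 tested protein-coding genes, 105 of 1077 processed pseudogenes and 13 of 350 lincRNA were DEG. The number of DEG depended strongly on set 3, without which there were 1675 DEG, and on set 4, without which there were 2070. Set 3 also had the widest response, with a median log2 difference of 0.57 over the DEG that were higher and −0.60 over those that were lower, compared with 0.28 to 0.41 and −0.35 to −0.42 in the other sets. The study's methods fit animal and treatment over both 48 h batches together. With all 40 libraries of 48 h and the labelled mouse taken as the animal, the count was 585 DEG.

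**Figure D1:**
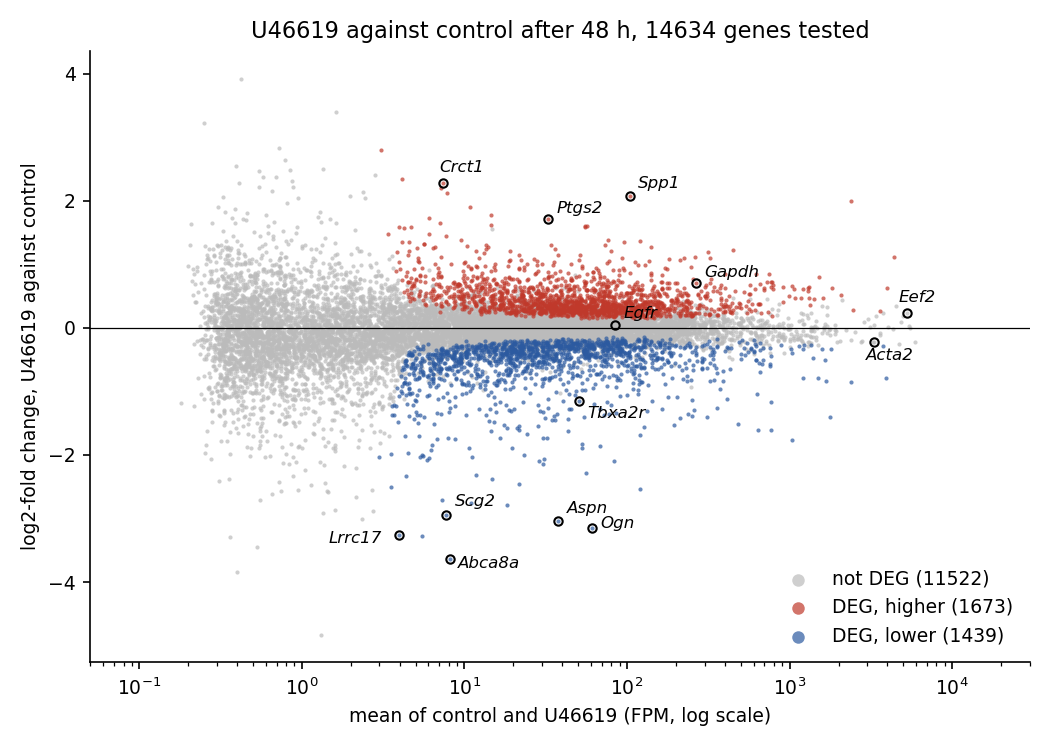
Log2-fold change of U46619 against control (y axis) plotted over the mean of both groups in FPM (x axis, log scale), 1 point per tested gene. The 1673 DEG that were higher (red) and the 1439 that were lower (blue) span the whole range of abundance above about 5 FPM, and the labelled falls of Abca8a, Lrrc17, Ogn and Aspn exceed the labelled rises of Crct1 and Spp1 in size.

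The first question was whether the genes that make and sense prostanoids differed between the groups. Tbxa2r, the gene of TP itself (GRCm38 chromosome 10, 81328731 to 81335172), was lower with the agonist. In sets 1 to 5 it was measured at 64.5, 74.7, 93.0, 88.6 and 30.3 FPM in control and at 38.1, 35.8, 31.2, 36.2 and 14.9 FPM with U46619. It fell in every set, although the low control of set 5 lay within the range of the U46619 cultures. The log2-fold change was -1.16 ± 0.15 (SE), a 2.23-fold decrease (edgeR FDR = 4.94e-05). Ptgs2, which encodes the inducible cyclooxygenase COX-2, moved the other way. It was measured at 7.89, 8.58, 5.78, 10.7 and 53.3 FPM in control and at 25.2, 30.9, 27.2, 39.95 and 117 FPM with U46619, a 3.29-fold rise (log2-fold change 1.72 ± 0.22, FDR = 4.94e-05). Set 5 was far above the other sets in both groups, so that the groups overlapped while every set rose. Of the 16 tested genes of prostanoid synthesis and reception, 3 rose and 2 fell (31.2%, compared with 21.3% of all tested genes). Ptgs1, the constitutive cyclooxygenase, and Pla2g4a, the phospholipase that frees arachidonic acid, were the other two that rose, by log2-fold changes of 0.69 and 0.55, and Ptges, a prostaglandin E synthase, fell with -0.74 ± 0.25. Ptgis, the prostacyclin synthase and the member with the highest FPM, was 180.8 FPM in control and 211 FPM with U46619 (FDR = 0.376). The median of the list was -0.14, against −0.01 over all tested genes.

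Downstream of TP, the Gq and RhoA list of 24 tested genes was split, with 4 DEG higher, 3 lower and a median of 0.04. The share of DEG was 29.2%, compared with 21.3% of all tested genes. RGS proteins speed up the shut-off of G proteins, and they did not move as one. Rgs16 rose by 1.00 ± 0.19 from 30.5 to 59.7 FPM in 5 of 5 sets. Rgs5, a regulator that is also used as a pericyte marker, fell by 1.74 on the log2 scale (FDR = 0.0152) and did so in 4 of 5 sets. Rgs2 fell by 0.84 from a level of 5.42 FPM. The RhoA-dependent kinases Rock1 and Rock2 rose by 0.38 and 0.43, and RhoC (Rhoc) rose by 0.28. Of the 25 tested genes of calcium handling, 4 rose and 3 fell (28.0%, median -0.05). The inositol trisphosphate receptor Itpr3 rose by 0.85 ± 0.13, and the plasma membrane calcium pump Atp2b4 had -0.90 ± 0.19. The cyclic GMP arm held a larger change. Gucy1a1, a subunit of the nitric oxide receptor guanylyl cyclase, was measured at 19.1, 3.24, 5.27, 1.58 and 0.683 FPM in control and at 3.92, 0.137, 0.512, 0.636 and 0.189 FPM with U46619. It fell in every set, 5.68-fold in the fit (FDR = 8.31e-05), although set 1 with U46619 exceeded 3 of the 5 controls. Its partner subunit Gucy1b1, the cyclic GMP-dependent kinase Prkg1 and the phosphodiesterase Pde5a also fell, by 0.50, 0.49 and 0.62. In the list of natriuretic peptides and phosphodiesterases, 2 of 18 tested genes rose and 5 fell (38.9%).

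**Figure D2:**
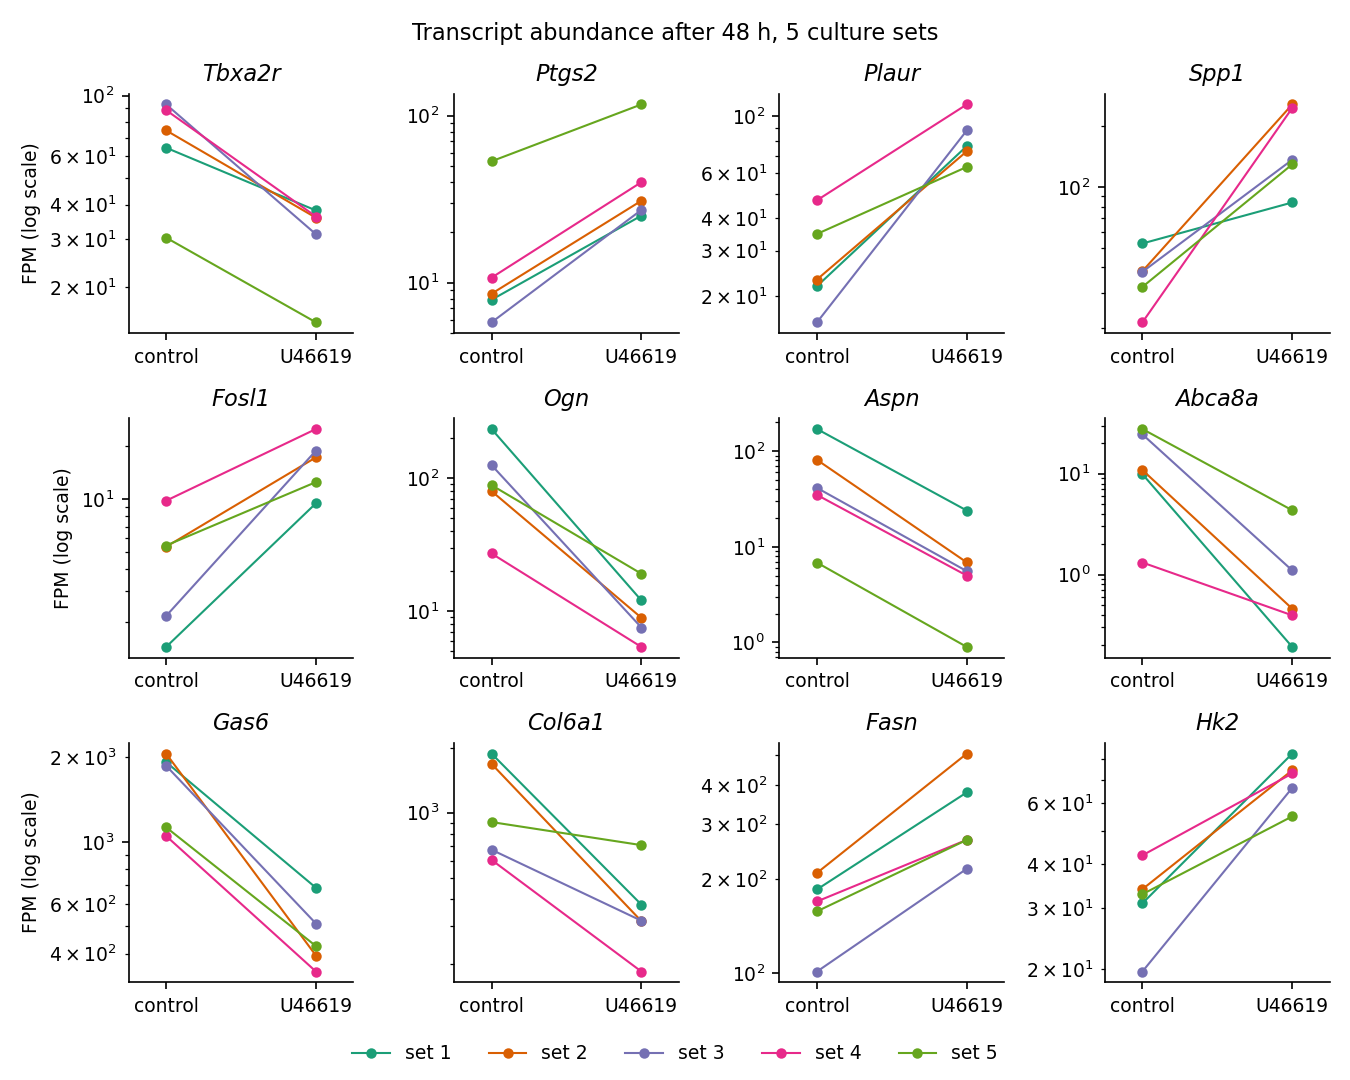
Expression of 12 genes in FPM (y axes, log scale) in control and U46619 after 48 h, with each line joining the 2 cultures of a culture set. Every line of Tbxa2r, Ogn, Aspn, Abca8a, Gas6 and Col6a1 falls and every line of Ptgs2, Plaur, Spp1, Fosl1, Fasn and Hk2 rises, while the starting levels differ widely between sets.

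Many genes that respond to ERK signaling were higher after 48 h. Of 16 tested AP-1 and EGR genes, 7 rose and none fell (median 0.54), and of 18 tested feedback inhibitors of ERK and EGFR, 11 rose and 1 fell (median 0.52). Fosl1, an AP-1 subunit that accumulates when ERK activity lasts, was measured at 1.45, 5.38, 2.17, 9.83 and 5.47 FPM in control and at 9.51, 17.3, 18.9, 25.1 and 12.5 FPM with U46619. It rose 3.72-fold (FDR = 4.59e-05) and in every set, with the high control of set 4 just above the lowest U46619 culture. Among the feedback inhibitors, Errfi1, which binds and restrains EGFR, rose by 1.02 ± 0.21, the ERK phosphatase Dusp4 by 0.78 ± 0.17 and Spred3 by 0.90 ± 0.10. Spry1, a Sprouty inhibitor of receptor tyrosine kinase signaling, was the single member that fell. It was measured at 122, 62.9, 53.6, 55.8 and 29.8 FPM in control and at 44.5, 23.6, 18.5, 13.4 and 27.5 FPM with U46619, a log2-fold change of -1.28 ± 0.21. Egfr itself was 79.1 ± 37.6 FPM (SD, n = 5) in control and 89.3 ± 63.3 FPM with U46619 (FDR = 0.884), and none of 7 tested EGFR ligand genes was a DEG. Hbegf, the ligand gene with the highest FPM, had a log2-fold change of 0.30 ± 0.12 (FDR = 0.0850). Myc rose by 0.76 ± 0.13 in 5 of 5 sets.

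The genes with the largest rise among those higher in every set included Crct1 (2.28), Vgf (2.13), Spp1 (2.08), Fosl1, Star (1.78), Klhl30 (1.73), Ptgs2, Tnni3k (1.65), Lrp8 (1.63) and Prl2c3 (1.60), on the log2-fold scale. Spp1, which encodes the matrix phosphoprotein osteopontin (GRCm38 chromosome 5, 104435118 to 104441050), rose from 52.5, 38.3, 38.0, 21.4 and 32.0 FPM to 83.9, 257, 137, 247 and 129.6 FPM. Its groups did not overlap, and the rise was 4.22-fold (FDR = 0.00141). Vgf, a neuropeptide precursor of the granin family, rose from 0.419, 1.96, 1.85, 7.50 and 4.37 FPM to 4.06, 10.9, 22.02, 13.2 and 11.8 FPM. Scg2, the precursor of secretoneurin and another granin, fell from 1.79, 6.13, 36.6, 7.54 and 16.7 FPM to 0.334, 0.503, 3.58, 1.06 and 2.92 FPM, a 7.67-fold decrease (FDR = 5.51e-06). Both granins thus moved in every set, in opposite directions. Star, which carries cholesterol into mitochondria, rose in every set, but its mean of 24.4 FPM with U46619 owes most to set 2 at 84.6 FPM, the other sets having 3.87 to 12.5 FPM. In set 5, Klhl30 had 65 counts in control and 64 with U46619, and Tnni3k had 4 in each. The rise of both genes in that set thus comes from the scaling to library size. Prl2c3 belongs to a family of near-identical genes, and since the reads that align to several places were counted, its values may hold reads of its relatives.

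The genes of pericellular proteolysis changed in both directions. Plaur, the urokinase receptor, rose by 1.59 ± 0.20 from 28.5 to 82.4 FPM, whereas Serpine2, an inhibitor of serine proteases, and Serpinf1, a secreted serpin, fell by 0.63 and 0.50. Mmp2 and Mmp23 fell by 0.81 and 0.83 and the serine protease Htra3 by 1.17. Of 32 tested matrix proteases and inhibitors, 4 rose and 8 fell (37.5%, compared with 21.3% of all tested genes, median -0.16). Timp2, the member with the highest FPM, had a log2-fold change of -0.06 ± 0.10.

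The cultures with U46619 held less RNA of many structural matrix genes. The small leucine-rich proteoglycans, which bind collagen fibrils and growth factors, showed this most. Of 12 tested members, 7 fell and 1 rose, with a median log2-fold change of -1.54. Ogn (osteoglycin) was measured at 233, 79.7, 125, 27.1 and 88.3 FPM in control and at 12.04, 8.92, 7.53, 5.39 and 19.1 FPM with U46619, without overlap of the groups. Aspn (asporin) was measured at 170.7, 81.2, 41.3, 34.9 and 6.83 FPM in control and at 23.9, 6.86, 5.56, 4.99 and 0.896 FPM with U46619. Its controls differed so widely between sets that the groups overlapped, yet it fell in every set. The decrease was 8.88-fold for Ogn (FDR = 3.65e-05), 8.22-fold for Aspn (FDR = 1.45e-07) and 9.65-fold for Omd, osteomodulin (FDR = 5.51e-06). Decorin (Dcn) fell by 1.12 and lumican (Lum) by 2.01, the latter with 1 set far below the others. Prelp, the member with the highest mean FPM, was not a DEG (-0.46 ± 0.20, FDR = 0.106). Tsku, the member that rose, is a secreted modulator of WNT and TGF-beta signals and had a log2-fold change of 0.45.

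Neighbouring genes shared some of these changes. Ecm2, Aspn, Omd and Ogn lie next to each other on the plus strand of chromosome 13 of GRCm38, between 49504810 and 49624501, and had log2-fold changes of -1.96 ± 0.25, -3.04 ± 0.19, -3.27 ± 0.31 and -3.15 ± 0.38. Cenpp, which encodes a centromere protein, spans all of them on the minus strand (49464023 to 49652785). It was 2.79 ± 1.11 FPM in control and 2.80 ± 0.944 FPM with U46619 (log2-fold change -0.01 ± 0.23, FDR = 0.983), a level under the 5 FPM minimum for a DEG. On the minus strand of chromosome 11, between 109932190 and 110337716, the lipid transporter genes Abca8b, Abca8a, Abca9, Abca6 and Abca5 follow each other. The first 3 fell, with -1.02 ± 0.23, -3.65 ± 0.40 and -1.93 ± 0.42. Abca6 and Abca5 at the other end had -0.44 ± 0.40 (FDR = 0.442) and -0.18 ± 0.16 (FDR = 0.415). Abca8a, the gene with the largest fall of all DEG that moved alike in every set, was measured at 9.91, 10.9, 24.6, 1.32 and 27.8 FPM in control and at 0.191, 0.457, 1.10, 0.394 and 4.34 FPM with U46619. It fell in every set, 12.5-fold (FDR = 1.63e-05), and only the low control of set 4 lay within the U46619 range. Abca8a and Abca8b are close paralogs that may share reads.

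**Figure D3:**
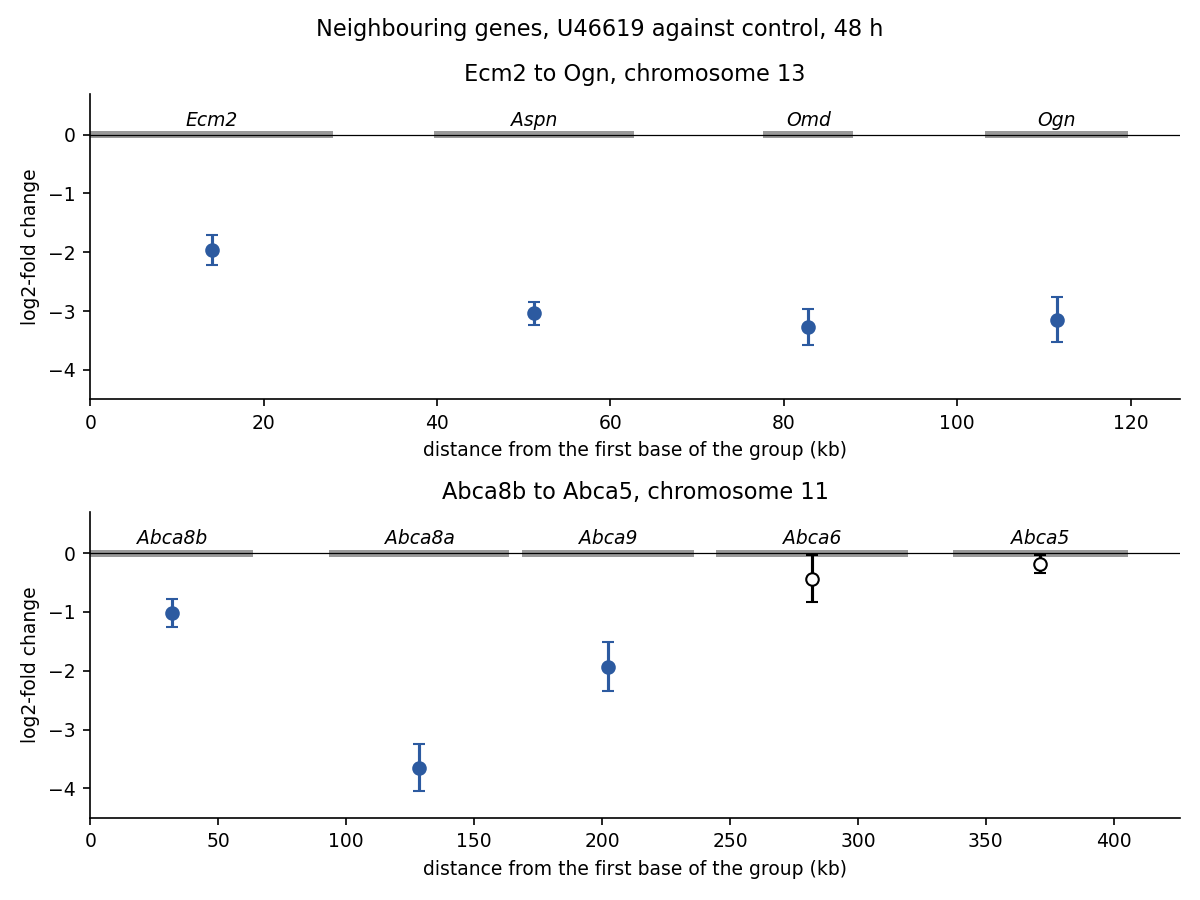
Log2-fold change of U46619 against control with its standard error (y axes) for 2 groups of neighbouring genes, drawn along the chromosome in kb from the first base of the group (grey bars, gene bodies; filled points, DEG; open points, not DEG). All 4 genes from Ecm2 to Ogn fell, whereas along the Abca genes the value runs from −3.65 at Abca8a to −0.18 at Abca5.

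The collagen list also held genes of collagen crosslinking. Of 29 tested, 7 fell and 2 rose (31.0%, compared with 21.3% of all tested genes), and the median was -0.09. Col3a1, a fibrillar collagen of vessel walls, was measured at 1591, 9886, 622, 588 and 757 FPM in control and at 375, 2758, 272, 255 and 519 FPM with U46619. It fell 2.64-fold (FDR = 8.98e-04) in 5 of 5 sets, with set 2 far above the rest in both groups. Col6a1 and Col6a2, which encode 2 chains of the microfibrillar collagen VI and are neighbours on chromosome 10, fell by 1.61 and 1.52. Col1a2 and Sparc, each the gene with the highest FPM of its list, had -0.26 ± 0.12 (FDR = 0.125) and -0.23 ± 0.09 (FDR = 0.0579). Loxl3 and Loxl4, which crosslink collagen and elastin, were the 2 members that rose, by 0.51 and 0.65, so none of the DEG that rose was a collagen. Of 18 tested genes of elastic fibres, 8 fell and 2 rose (median -0.34). Fbln7 (fibulin 7) fell from 86.4, 187.2, 499, 170.9 and 102 FPM to 21.8, 28.3, 47.4, 43.2 and 19.05 FPM without overlap, 5.82-fold (FDR = 5.10e-06). Eln, the gene of tropoelastin, was measured at 248, 37.3, 122, 114 and 3.30 FPM in control and at 267, 7.27, 16.1, 14.7 and 1.13 FPM with U46619. Set 1 stayed at its control level while sets 2 to 5 fell, and the fitted decrease was 4.28-fold (FDR = 0.00154). Fbln2 and Ltbp1, which sit on microfibrils, rose by 0.63 and 0.71. The matricellular genes of injured tissue moved in part against the structural ones. Thbs1 (thrombospondin 1) rose by 1.12 ± 0.23 from 2727 to 6070.1 FPM, and Tnc (tenascin C) rose by 0.85, whereas Ccn3, Sparcl1 and Postn fell by 1.41, 1.73 and 0.56. In all, 3 of 20 tested matricellular genes rose and 5 fell.

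Many genes known from adventitial fibroblasts were lower. Of 18 tested, 11 fell and 1 rose, with a median of -0.74. Gas6, a ligand of the TAM receptors, was measured at 1925, 2064, 1868, 1050.3 and 1128 FPM in control and at 686, 393, 512, 345 and 425 FPM with U46619, without overlap (3.39-fold lower, FDR = 1.50e-05). Its receptor gene Axl rose by 0.72 ± 0.11. Scara5, a ferritin receptor, fell from 27.3, 37.1, 26.4, 7.85 and 44.9 FPM to 1.72, 3.38, 3.33, 1.39 and 29.7 FPM, much less in set 5 than in the others. Lrrc17 fell 9.56-fold from a mean of 7.14 FPM, and Gsn (gelsolin), the member with the highest FPM, had a log2-fold change of -0.86 from 3099 FPM. The fibroblast markers mentioned above were divided. Dcn, Lum, Dpt, Pi16 and Ly6a fell, the means of Dpt going from 99.7 to 49.99 FPM, of Pi16 from 10.4 to 3.11 FPM and of Ly6a from 801 to 562 FPM, whereas Pdgfra, Cd34 and Col1a1 were not DEG, with 230, 71.3 and 4290 FPM in control and 220, 60.4 and 3810 FPM with U46619. The part of fibroblast content in these changes was not tested. Of 16 tested complement genes, 8 fell and 1, Masp1, rose (median -0.97). The classical pathway protease C1ra fell by 1.35 ± 0.22 and C1s1 by 1.26 ± 0.24. C3, the central component, fell by 1.17 ± 0.35, with control values from 62.9 to 2823 FPM between sets. Of 17 tested ABCA and retinoid genes, 10 fell and none rose (median -0.75). Adh1, a retinol-oxidising alcohol dehydrogenase, fell by 2.38 ± 0.30, and Aldh1a1, which makes retinoic acid, by 0.71 ± 0.16.

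Secreted signals and their antagonists differed from list to list. In the WNT and Notch list, 10 of 29 tested genes fell and 1 rose (37.9%, compared with 21.3% of all tested genes, median -0.52). Sfrp4, a secreted WNT antagonist, had -2.10 ± 0.43, the Notch target Hey1 -1.70 ± 0.31 and the Notch ligand Jag1 -0.99 ± 0.20. Control counts of Hey1 were 590 in set 1 and 44, 83, 56 and 4 in sets 2 to 5, so set 1 carried most of its mean. For Sfrp4 they were 4503 in set 2 and 213 to 520 in the other sets. Id4, a BMP-responsive inhibitor of helix-loop-helix factors, fell from 181.5, 75.7, 122, 47.1 and 44.5 FPM to 31.2, 15.6, 13.6, 13.5 and 14.9 FPM, 4.87-fold and without overlap (FDR = 3.53e-06). Follistatin (Fst) fell by 1.21 ± 0.10, whereas the BMP antagonist Grem1 rose by 0.83. Over the TGF-beta and BMP list, 6 of 28 tested genes rose and 6 fell (42.9%). In the IGF list, 5 of 17 fell, Igfbp4 with -1.27 ± 0.20, and 2 rose (41.2%). Of 23 tested chemokines and cytokines, 4 rose and 2 fell, a share of 26.1% that was near that of all tested genes. Il6, Lif and Csf1 rose by 1.27, 0.71 and 0.59. Il1rl1, the receptor of IL-33, was the strongest of this list at 2.20 ± 0.31, from 2.51 to 11.8 FPM and higher in 4 of 5 sets. Cxcl13 and Cx3cl1 fell. Cxcl12, the chemokine gene with the highest FPM, was not a DEG (FDR = 0.398).

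**Figure D4:**
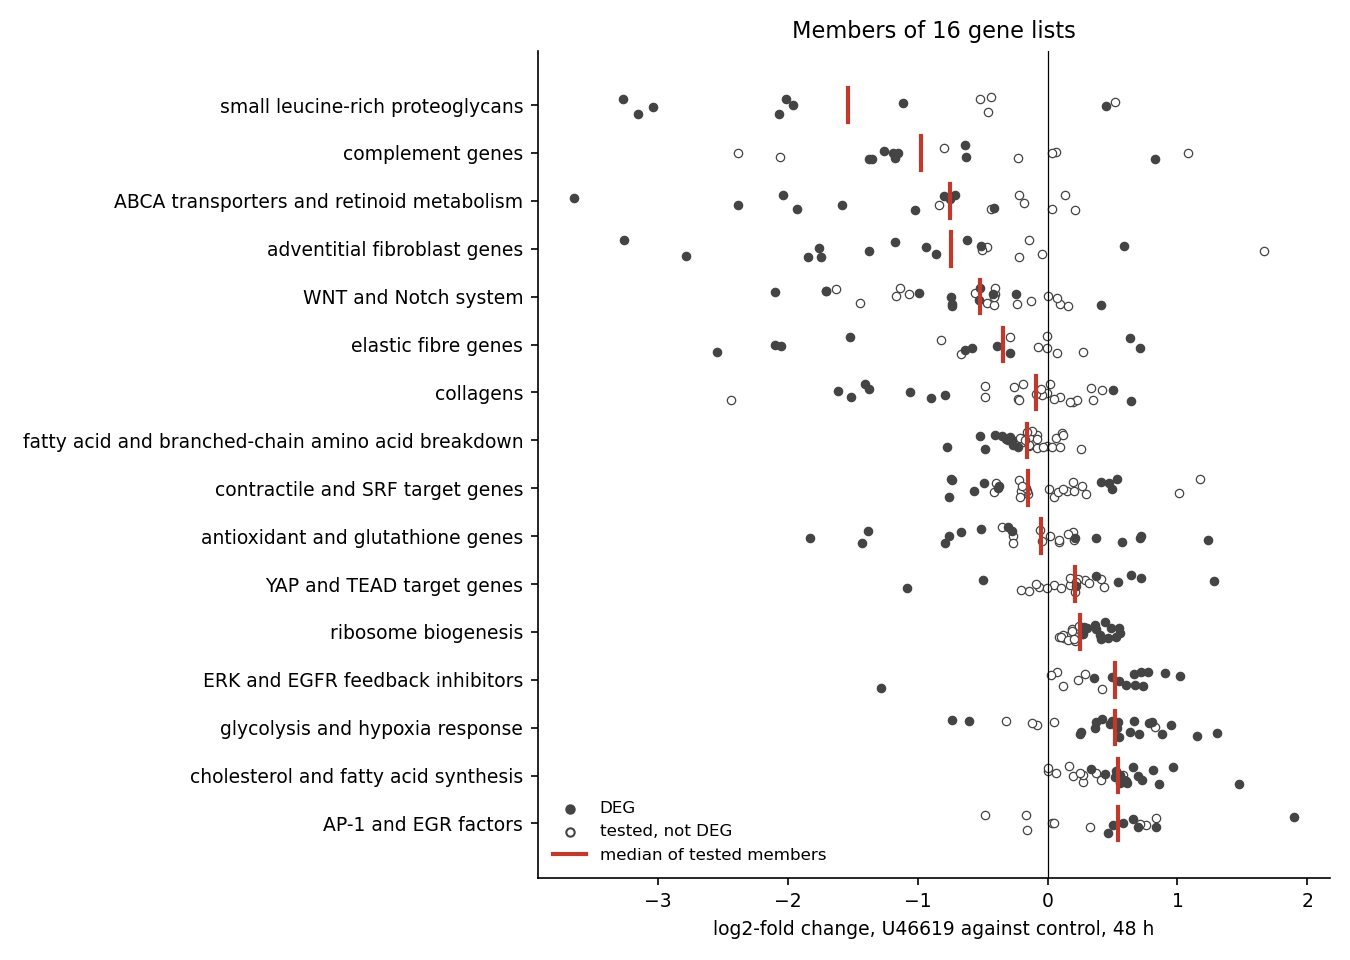
Log2-fold change of U46619 against control after 48 h (x axis) for the tested members of 16 gene lists, 1 point per gene (filled, DEG; open, not DEG), with the median of each list as a red bar. The medians run from −1.54 for the small leucine-rich proteoglycans to 0.54 for cholesterol and fatty acid synthesis and for the AP-1 and EGR factors, and most lists hold DEG on both sides of 0.

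Many metabolic genes were higher with U46619. Of 26 tested genes of glycolysis and the hypoxia response, 19 rose and 2 fell, with a median of 0.52. Slc16a3, which exports lactate, was measured at 15.3, 45.1, 10.1, 10.9 and 17.0 FPM in control and at 58.1, 106, 33.4, 25.5 and 19.3 FPM with U46619, a 2.47-fold rise (FDR = 2.29e-04) that was small in set 5. Hk2 (hexokinase 2) rose from 30.9, 33.9, 19.7, 42.5 and 32.8 FPM to 83.2, 74.5, 66.3, 72.9 and 54.9 FPM, 2.21-fold and without overlap (FDR = 2.90e-05). The glucose transporter Slc2a1 rose by 0.95 ± 0.11, Pgam1 by 0.67 ± 0.11 and Ldha by 0.50 ± 0.12. The members that fell, Adm and Ndrg1, are hypoxia-responsive genes outside the glycolytic pathway and had −0.61 and −0.74. Gapdh, often used as a reference gene, rose in 5 of 5 sets from 188.4, 246, 164.7, 239 and 163.6 FPM to 367, 465, 292, 307 and 221 FPM, 1.63-fold (FDR = 4.11e-04). Gapdh has many processed pseudogenes that can share its reads.

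The proximal promoters of 3 glycolytic DEG and of Ptgs2 are shown because they hold ACGTG, the core of the hypoxia response element, which the E-box CACGTG contains as well. Each sequence is the 300 bases from 250 before to 50 after the RefSeq start (GRCm38.p6), written 5′ to 3′ on the strand of the gene. Capitals mark ACGTG on either strand, so that CACGT stands for a match on the other strand. Slc16a3 lies at chr11:120948817-120949116 (plus strand), Hk2 at chr6:82774405-82774704 (minus strand), Slc2a1 at chr4:119108495-119108794 (plus strand) and Ptgs2 at chr1:150099781-150100080 (plus strand).
Slc16a3: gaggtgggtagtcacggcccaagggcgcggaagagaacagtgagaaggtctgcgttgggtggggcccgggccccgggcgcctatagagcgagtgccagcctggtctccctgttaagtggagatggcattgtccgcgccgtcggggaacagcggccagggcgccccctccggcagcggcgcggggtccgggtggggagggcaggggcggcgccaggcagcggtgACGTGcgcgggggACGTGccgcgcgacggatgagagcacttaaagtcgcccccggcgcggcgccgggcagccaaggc
Hk2: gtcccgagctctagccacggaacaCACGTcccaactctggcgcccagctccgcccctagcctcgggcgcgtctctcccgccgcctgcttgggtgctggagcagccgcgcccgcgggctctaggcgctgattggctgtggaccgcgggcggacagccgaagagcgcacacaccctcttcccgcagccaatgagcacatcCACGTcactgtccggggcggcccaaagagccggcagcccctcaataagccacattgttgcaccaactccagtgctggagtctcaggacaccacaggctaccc
Slc2a1: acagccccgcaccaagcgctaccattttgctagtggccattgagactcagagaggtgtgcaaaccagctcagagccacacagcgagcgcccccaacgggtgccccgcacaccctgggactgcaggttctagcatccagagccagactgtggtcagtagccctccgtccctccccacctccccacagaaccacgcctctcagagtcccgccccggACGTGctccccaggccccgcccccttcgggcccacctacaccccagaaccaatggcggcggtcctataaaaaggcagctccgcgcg
Ptgs2: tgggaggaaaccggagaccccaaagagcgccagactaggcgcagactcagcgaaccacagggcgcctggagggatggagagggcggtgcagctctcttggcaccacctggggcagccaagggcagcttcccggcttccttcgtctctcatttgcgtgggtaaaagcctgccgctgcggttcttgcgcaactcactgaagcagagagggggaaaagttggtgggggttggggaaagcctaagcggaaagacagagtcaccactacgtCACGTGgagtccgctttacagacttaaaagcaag
A promoter was matched for 9764 of the 14634 tested genes, among them all 19 glycolysis and hypoxia genes that rose. ACGTG was found on either strand in 14 of these 19, compared with 34.8% of the 1231 matched DEG that were higher, 26.7% of the 1054 that were lower and 27.6% of the 7479 tested genes that were not DEG. The palindrome CACGTG was found in 15.5%, 11.1% and 10.6% of the same groups. The AP-1 core TGANTCA was found in 6.50%, 7.02% and 6.82%, the TEAD core GGAATG in 13.2%, 16.4% and 14.9%, and the CArG box bound by SRF in 1.71%, 1.61% and 1.58%. These shares describe letters in a window and say nothing of binding. The glycolysis list was chosen to hold hypoxia-response genes, so its share cannot tell whether ACGTG goes with the response to U46619. Of its other members with a promoter, Pfkm and Aldoc held ACGTG, and Adm, Ldhb, Pfkp and Eno2 did not.

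Genes of lipid synthesis were also among the DEG. Of 28 tested genes of cholesterol and fatty acid synthesis, 17 rose and none fell (median 0.54). Fasn, the fatty acid synthase, was measured at 185.7, 209.7, 101.4, 169.98 and 158.04 FPM in control and at 379.7, 505, 216, 268 and 268 FPM with U46619, a 1.95-fold rise (FDR = 2.38e-05) without overlap of the groups. Scd2, a fatty acid desaturase, rose by 0.85 ± 0.16, with set 4 nearly level at 530.5 and 562 FPM. The transcription factor gene Srebf2 rose by 0.44. Of 31 tested genes of fatty acid and branched-chain amino acid oxidation, 11 fell and none rose (median -0.16), with the mitochondrial thiolase Acaa2 at -0.77 ± 0.12. Of 30 tested nuclear genes of oxidative phosphorylation, 4 fell and none rose (median -0.05). This share of 13.3% was below the 21.3% of all tested genes. Of 29 tested genes of ribosome biogenesis, 13 rose and none fell, with a median of 0.25 and the pre-rRNA processing factor Rrp12 at 0.53 ± 0.09. In the ATF4 list, 9 of 30 rose and 3 fell, and the cystine transporter Slc7a11 rose by 0.97 ± 0.14, although its value was −0.27 with all 40 libraries and the labelled mouse. The antioxidant list was divided by kind. Hmox1 (heme oxygenase 1) rose from 109, 282, 243, 399 and 283 FPM to 356, 669, 703, 1074 and 354 FPM, 2.35-fold (FDR = 4.68e-05), and Txnrd1 and Srxn1, which restore thioredoxin and peroxiredoxins, rose by 0.71 and 0.72. The glutathione transferases Gstt1 and Gstm1 and the extracellular peroxidase Gpx3 fell by 1.83, 1.38 and 1.43. In total 6 of 26 tested antioxidant genes rose and 9 fell.

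Of 31 tested contractile and SRF target genes, 4 rose and 7 fell (35.5%, compared with 21.3% of all tested genes), with a median of -0.15. Acta2, smooth muscle actin, was measured at 3403, 1487, 3947, 7328 and 1639 FPM in control and at 3214, 1553, 4384, 5008 and 1098 FPM with U46619, higher in 2 sets and lower in 3 (log2-fold change -0.22 ± 0.21, FDR = 0.473). Myh11, smooth muscle myosin, fell by 0.73 ± 0.19 and its kinase Mylk by 0.74 ± 0.22, each in 4 of 5 sets. The actin-binding genes Cald1 and Actn1 rose by 0.47 and 0.53. In the YAP and TEAD list, 6 of 24 tested genes rose and 2 fell, with Ankrd1 at 1.28 ± 0.24 and Ccn2, the member with the highest FPM, at 0.43 ± 0.22 (FDR = 0.153). Of 28 tested mitotic genes, 5 rose and none fell (17.9%), and of 32 genes of DNA replication, 2 rose and none fell (6.25%). Among all tested genes 11.4% were higher and 9.83% lower. In the senescence list, 5 of 18 rose and 3 fell, Plaur and Il6 among those that rose. In the apoptosis list, 5 of 23 rose and 5 fell. Of 13 tested Krüppel-like factors, 2 fell, Klf15 in 5 of 5 sets from 25.4 to 15.2 FPM (log2-fold change -0.75 ± 0.14) and Klf2 in 4 of 5.

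The question whether these changes recur in other libraries was addressed first with U46619 on top of EGF, that is EGF+U46619 against EGF, which shares no library with the comparison above but uses the same culture sets. Of the 3112 DEG, 3076 (98.8%) had the same sign there, compared with 73.6% of the 11522 genes that were not DEG. A DEG in both comparisons was found 1603 times, 51.5% of the DEG described here and 79.4% of the 2019 DEG of U46619 on EGF (13.8% of the genes tested). Tbxa2r had a log2-fold change of -1.15 ± 0.15 on EGF and -1.16 without it, Abca8a -4.28 ± 0.40 and -3.65, and Aspn -2.96 ± 0.19 and -3.04. Spp1 rose by 3.07 ± 0.41 on EGF and by 2.08 without it, and Fosl1 by 1.06 ± 0.22 and 1.89. The test of the difference, the EGF by U46619 interaction, gave 0 DEG with both tools and with edgeR or DESeq2 alone, and 431 genes (2.95% of those tested, less than the 5% of evenly spread p-values) had an unadjusted p under 0.05 in edgeR. Lipid synthesis was the list whose count differed most, with 2 of 28 DEG and a median of 0.08 on EGF against 17 and 0.54 without it. Of these 28 genes, 11 had an unadjusted interaction p under 0.05 and none passed the adjusted threshold.

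U46619 had also been given to cultures of 6 other mice for 24 h, in another batch, so that time, batch and mice cannot be told apart. In a joint fit of both times, which called 473 DEG at 48 h (3.08%), 2831 of the 3112 DEG (91.0%) had the same sign at 24 h, compared with 66.9% of the genes that were not DEG. Of the DEG, 1999 (64.2%) were DEG at 24 h too, where 4871 genes (31.7% of those tested) were called, and 39 of these 1999 had the opposite sign. The median change of the 48 h DEG was larger at 24 h, 0.47 against 0.40 for those higher and −0.67 against −0.44 for those lower. The proteoglycans had a median of -1.48 at 24 h and complement genes -0.91, close to the values after 48 h. DNA replication genes did not, with a median of 1.30 and 31 of 32 DEG at 24 h. Neither did the contractile list, with a median of 0.73 and 17 of 31 DEG that were higher. Lipid synthesis had 1 of 28 DEG at 24 h, with a median of 0.37, compared with 17 of 28 after 48 h. Only 62 genes (0.404%) passed the test of the difference between times, 23 of them with a higher and 39 with a lower value at 48 h, and 60 had the larger change at 24 h. The contractile genes Acta2 and Actg2 were among them. Acta2 had a log2-fold change of 2.06 at 24 h and -0.21 at 48 h in this fit, a difference of -2.27 ± 0.51 (FDR = 0.0369), and Actg2 had 2.68 and -0.13. Of the DNA replication genes, Ung and Mcm6 passed. The count of 62 was unstable, since leaving out 1 replicate gave between 0 and 702 genes.

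**Figure D5:**
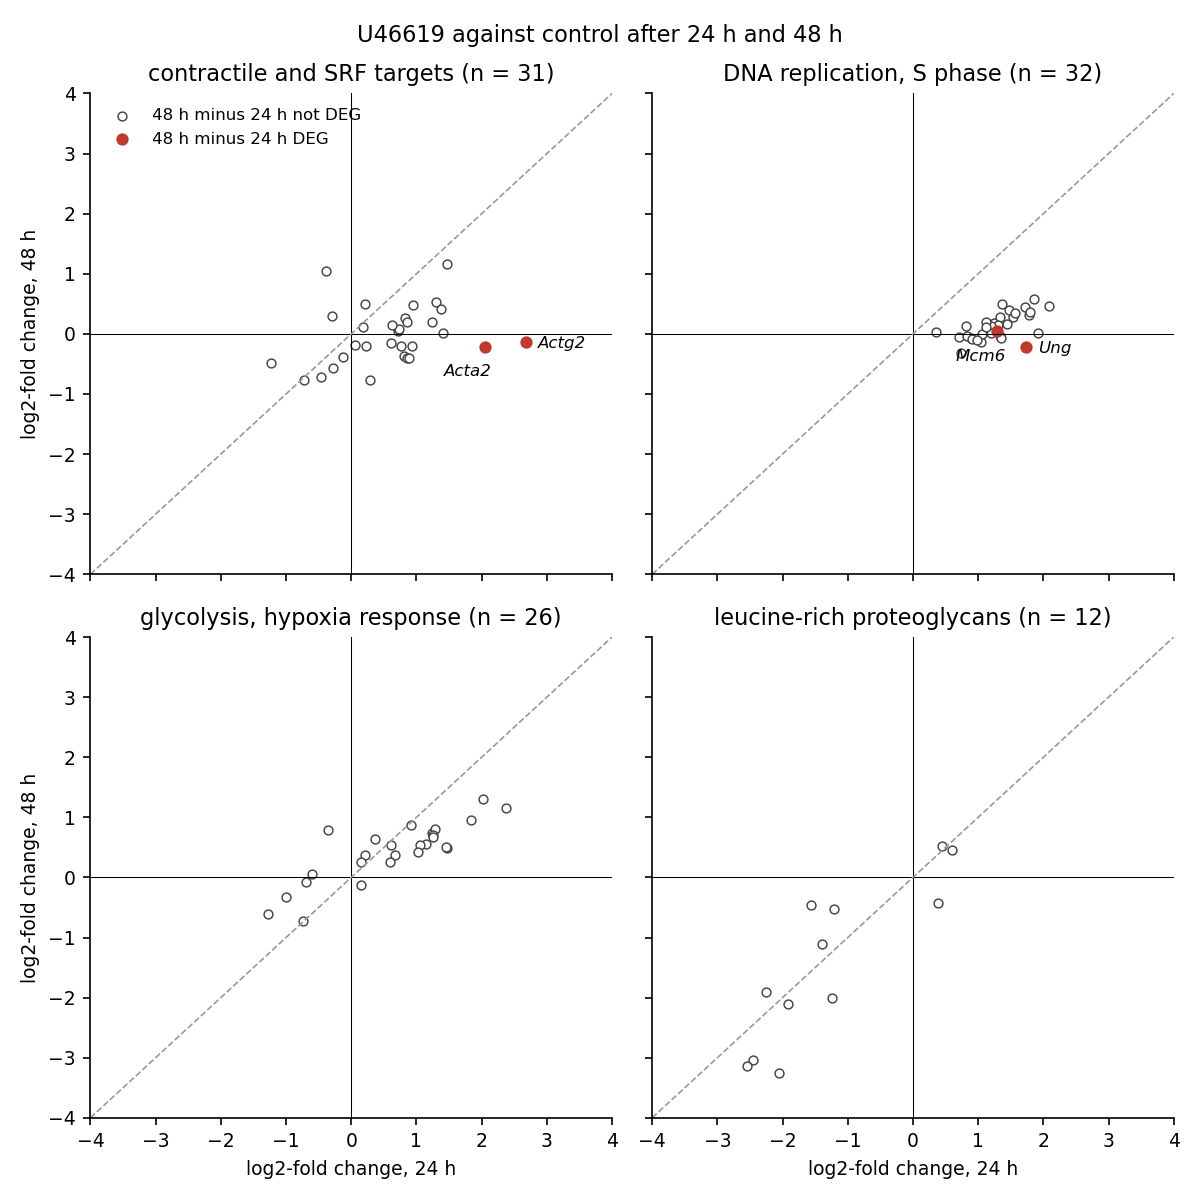
Log2-fold change of U46619 against control after 24 h (x axes) and 48 h (y axes) for the tested members of 4 gene lists, with the dashed line marking equal values and red points the genes that passed the test of the difference. The proteoglycans lie near the dashed line, whereas the DNA replication genes and Acta2 and Actg2 lie to the right, near 0 at 48 h.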

How the data were processed

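Per the study's methods, poly(A)-enriched RNA was sequenced as paired ends. The authors aligned the reads to mm10 (GRCm38) with HISAT2 2.1.0 and counted them per Ensembl gene over exons with featureCounts, multi-mapping reads included; no strand setting is stated. The deposited values are raw counts per gene and library (55401 genes). Positions are from GENCODE and promoters from RefSeq, both on GRCm38.

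Counts of the 20 libraries of the 48 h EGF/U46619 batch were fitted with edgeR 4.0.16 (quasi-likelihood test, TMM, filterByExpr) and DESeq2 1.42.0 in R 4.3.3, with treatment and culture set as terms. FDR are Benjamini-Hochberg adjusted over all tested genes, standard errors follow from edgeR's statistic, and set-wise differences are on log2(FPM + 0.5). The culture set was used as the block because deviations from the group means correlated over 0.1 in 30 of 30 pairs of cultures of a set (minimum 0.308, median 0.804), but in 4 of 16 pairs that share the mouse number of sets 1 and 4 (median 0.0703). Where cultures of sets 1 and 4 come from the same mouse, p-values are too small. The study's design of animal and treatment over the 40 libraries, with the labelled mouse taken as the animal, was an alternative. The comparison with 24 h used a joint fit of 62 libraries and 15345 genes. On counts simulated for the 48 h comparison with 200 of 14456 genes changed, 183 were recovered in 192 calls. These were 52 of 67 at 1.5-fold, 65 of 67 at 2-fold and 66 of 66 at 4-fold. For the difference between times, 110 calls held 107 of the 200 genes changed among 15195. The simulation treated sets 1 and 4 as separate and held no change under 1.5-fold. The median DEG was 1.31-fold higher or 1.36-fold lower, so the simulation does not measure how many of the 3112 DEG are false.

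The named genes are the 12 DEG with the largest rise and the 12 with the largest fall among those alike in 5 of 5 sets, receptor and reference genes, up to 3 DEG and the gene with the highest FPM of each of 40 lists, and 5 genes of the time difference. Some genes of this rule are not reported here. The other members named were chosen after their values were seen. The comparison and the lists were chosen with earlier results of these data known. Alternatives were other filters, tools, scalings, blocks and library sets, and leaving out each replicate.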

Additional observations from a re-analysis of the deposited data

Results flagged for a closer look

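U46619 changed 5 genes differently after 48 h and 24 h, with the largest differences among the 62 genes that passed the test of the time difference. The log2-fold change at 48 h minus that at 24 h was −3.50 for Ccl17, a chemokine gene, −2.81 for Actg2 and −2.27 for Acta2, both smooth muscle actins, −2.66 for Pilra, an inhibitory immune receptor, and −1.94 for Ung, the uracil DNA glycosylase. Each was higher with U46619 at 24 h, by 3.23, 2.68, 2.06, 3.33 and 1.73 in that order. At 48 h their values were −0.27 for Ccl17, −0.13 for Actg2, −0.21 for Acta2, 0.67 for Pilra and −0.21 for Ung. Time, batch and mice cannot be told apart in these differences. With any 48 h replicate or 24 h replicate 1 left out, 0 genes passed the test. At 48 h Ccl17 had means of only 1.32 FPM in control and 1.01 FPM with U46619. Pilra passed narrowly (edgeR FDR = 0.04998).

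The within-set log2 difference between U46619 and control had 1 set far from the other 4 for 8 of the named genes by Dixon's test, 4.26% of the values tested, and chance alone flags about 1 in 20, so that 8 is no more than chance would give. Set 4 stood apart for Scd2 (0.08, others 0.92 to 1.15). Set 3 stood apart for Heatr1, a ribosome biogenesis factor (0.94, others 0.41 to 0.54), and for Cdkn1b, a CDK inhibitor (−0.48, others −0.26 to −0.19). Set 2 stood apart for Lum (−3.36, others −1.43 to −0.65), Cxcl12 (−0.96, others −0.12 to 0.20) and Hadha, a subunit of fatty acid oxidation (0.14, others −0.16 to −0.09). Set 1 stood apart for the integrin gene Itga7 (1.70, others 0.32 to 0.69) and for Mlx, a partner of MYC-like factors (0.59, others 0.35 to 0.39).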

How the results depend on the processing

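The 3112 DEG of U46619 became 3115 with edgeR alone, 3508 with DESeq2 alone and 2249 with the 10 compared libraries only, and stayed within 1.5 times of the count under every other filter, tool and scaling tried. With only the block changed, there were 127 DEG without the replicate block and 1589 with the labelled mouse as block. With only the libraries changed, to all 40 with the culture set as block (an alternative chosen after seeing the data), there were 1547, and with both changed, to all 40 libraries and the labelled mouse, 585. With sets 1 and 4 summed into 1 mouse, also chosen after seeing the data, there were 2675. Leaving out 1 replicate gave 1675 (without replicate 3) to 2902 (without replicate 5) DEG. Of the 147 named DEG, 15 passed without the block, 48 with all 40 libraries and the labelled mouse, and 120 to 141 with 1 replicate left out. The direction changed for 2 of them, Ano1 (−0.41) and Slc7a11 (−0.27), both with all 40 libraries and the labelled mouse and both far from the threshold there. The interaction of EGF and U46619 gave 0 DEG under each alternative, the replicate block included. The 62 genes of the time difference became 542 with DESeq2 alone, 235 with U46619 and control libraries only, and 0 without the replicate block. Leaving out any 48 h replicate or 24 h replicate 1 gave 0, replicates 2, 4 and 5 of 24 h gave 3, 3 and 4, and replicates 3 and 6 gave 702 and 652, so the range was 0 to 702. The cause of these moves was not tested. At 5 sets a group and the depth used, changes of 1.5-fold were recovered less often in simulated counts than larger ones.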

Other observations

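The study's methods name Gapdh and Eef2 as references for qPCR and the GAPDH and HSP90 proteins as references for Western blots. The RNA of Gapdh is described above. Of the HSP90 genes, Hsp90aa1 was measured at 543, 574, 485, 643 and 533 FPM in control sets 1 to 5 and at 675, 778, 754, 751 and 652 FPM with U46619, higher in 5 of 5 sets and without overlap of the groups (log2-fold change 0.38 ± 0.08, edgeR FDR = 0.00194). Hsp90ab1 rose by 0.28 ± 0.09 (FDR = 0.0358). Eef2, a translation elongation factor, was not a DEG, with 0.24 ± 0.10 (FDR = 0.0797).

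Integrin genes, which no comparison above covered, showed 5 rises and 1 fall among 16 tested (37.5%, compared with 21.3% of all tested genes). Itga5, the fibronectin receptor subunit, rose by 0.63 ± 0.17, and Itga1, a collagen receptor subunit, fell by 1.16 ± 0.18. Of 18 tested circadian output genes, 2 rose and 2 fell, a share of 22.2% that was near that of all tested genes. Nfil3 and Bhlhe40 rose by 0.64 and 0.48, and Dbp and Tef had -0.34 and -0.28. In the PDGF and FGF list, 5 of 25 tested genes rose and 4 fell (36.0%), with Angpt2, an antagonist of endothelial TIE2 signaling, at -1.05 ± 0.27. The angiotensin receptor gene Agtr1a was 2.48 ± 2.69 FPM (SD, n = 5) in control and 1.53 ± 2.03 FPM with U46619 (FDR = 0.104).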
